A study of Homo sapiens with 51 samples.

Results

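Described here are open chromatin regions called in undifferentiated human embryonic stem cells that no region called in the differentiating cells overlapped. They were taken as every day 0 region that shared not even 1 bp with any region of 2 later region sets, one called in cells under BMP4 and one in cells under SMADi. Of the 100584 day 0 regions, 2590 met that rule, or 2.57%. The rule used positions only, but the positions are regions called from reads, so the level of a site and its lack of an overlap are not independent. The later sets held 142087 regions (BMP4) and 162317 regions (SMADi), and 91477 day 0 regions overlapped both of them, 2597 the SMADi set alone and 3920 the BMP4 set alone.

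The study used the established human embryonic line H1, with a KO line, a ΔATG line and WT cells. Which gene was edited is not told by the labels, and they do not say whether a line is 1 clone or whether replicate libraries came from separate cultures, so p-values measure the spread between libraries, which may be technical. ATAC-seq, in which a transposase cuts accessible DNA and adds sequencing adapters, was run on pellets of undifferentiated cells (day 0) and on cells at days 1 to 5 of BMP4 treatment toward mesoderm or at days 1, 4 and 5 of dual SMAD inhibition (SMADi) toward neural progenitors. The series has 51 libraries, 17 KO, 16 ΔATG and 18 WT. The day 0 results rest on 6 of them, 2 KO, 2 ΔATG and 2 WT, all untreated and in the same stem cell medium.

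A region that transposase can enter is usually free of a stable nucleosome because transcription factors or the transcription machinery occupy it. In embryonic stem cells such sites include promoters, most of which stay open in many cell types, and distal enhancers bound by OCT4, SOX2 and NANOG, many of which close when the cells leave pluripotency. BMP4 drives the cells toward primitive streak and mesoderm, and blocking both arms of SMAD signalling drives them toward neuroectoderm.

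The sequences of 7 day-0-only regions that sit at gene starts are shown, picked for their read level, a motif, their distance from later regions or the gene's role. Of the 2590 members, 28 lay wholly inside the window from 250 bases before to 50 bases after a RefSeq gene start (GRCh38.p14), and 6 of these 28 were more than 1 kb from any later region. The 7 are the member with the highest read level (PPM1B, a protein phosphatase), a growth factor gene active in the early embryo (FGF5), the 2 with a match to the octamer that POU factors such as OCT4 recognise (BHLHA15, a transcription factor of secretory cells, and ZNF630, a zinc-finger gene), and the 3 at protein-coding starts that lay more than 1 kb from any later region (TMEM225B, PNMA5 and MOV10L1, a germline RNA helicase). Each is given 5′ to 3′ on its gene's strand, with capitals at matches on either strand to the GC box GGGCGG, the CCAAT box CCAAT, the TATA box TATAAA, the octamer ATTTGCAT and the SOX core CATTGT. No motif contains another, and overlapping matches of one motif were all marked. Their mean levels over the 6 day 0 libraries follow in the next paragraph.
PPM1B, chr2:44168664-44168864, plus strand: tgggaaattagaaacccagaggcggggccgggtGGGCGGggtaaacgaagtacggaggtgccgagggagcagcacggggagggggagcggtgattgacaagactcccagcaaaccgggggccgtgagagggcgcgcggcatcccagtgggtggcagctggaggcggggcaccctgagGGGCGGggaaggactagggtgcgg
FGF5, chr4:80266408-80266608, plus strand: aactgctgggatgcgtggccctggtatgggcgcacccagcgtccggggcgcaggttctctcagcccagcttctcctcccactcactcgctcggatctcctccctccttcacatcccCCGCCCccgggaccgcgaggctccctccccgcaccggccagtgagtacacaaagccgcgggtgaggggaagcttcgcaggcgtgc
BHLHA15, chr7:98211252-98211452, plus strand: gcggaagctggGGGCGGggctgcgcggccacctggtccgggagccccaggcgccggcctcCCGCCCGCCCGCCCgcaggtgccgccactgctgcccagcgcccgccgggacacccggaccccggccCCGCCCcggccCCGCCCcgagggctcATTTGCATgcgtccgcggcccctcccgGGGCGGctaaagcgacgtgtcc
ZNF630, chrX:48071105-48071305, minus strand: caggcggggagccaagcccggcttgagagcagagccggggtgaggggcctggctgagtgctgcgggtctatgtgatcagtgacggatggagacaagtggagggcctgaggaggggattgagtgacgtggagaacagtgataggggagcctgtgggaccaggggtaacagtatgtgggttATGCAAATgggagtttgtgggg
TMEM225B, chr7:99598106-99598306, plus strand: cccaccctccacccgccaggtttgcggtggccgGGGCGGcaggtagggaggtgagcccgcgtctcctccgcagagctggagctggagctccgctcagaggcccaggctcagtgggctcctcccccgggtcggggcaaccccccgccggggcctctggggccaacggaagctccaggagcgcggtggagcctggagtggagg
PNMA5, chrX:152992171-152992371, minus strand: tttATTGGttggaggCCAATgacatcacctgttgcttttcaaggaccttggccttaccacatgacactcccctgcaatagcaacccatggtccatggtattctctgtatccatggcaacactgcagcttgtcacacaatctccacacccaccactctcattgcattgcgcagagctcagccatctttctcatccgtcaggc
MOV10L1, chr22:50089854-50090054, plus strand: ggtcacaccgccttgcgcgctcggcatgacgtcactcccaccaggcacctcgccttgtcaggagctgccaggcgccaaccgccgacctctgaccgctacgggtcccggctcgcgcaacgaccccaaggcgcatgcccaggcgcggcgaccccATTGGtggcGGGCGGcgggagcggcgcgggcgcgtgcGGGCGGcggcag

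Levels are given in CPM, the count in a region scaled to the total count over all regions of that library. PPM1B had a mean of 24.3 CPM, far above the other 6 shown. BHLHA15 had 4.23 CPM, ZNF630 had 4.15 CPM, TMEM225B had 3.99 CPM, PNMA5 had 3.68 CPM, FGF5 had 3.39 CPM and MOV10L1 had 2.97 CPM.

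The promoter members held fewer of the common promoter motifs than the 6418 other day 0 regions that lay wholly inside such a window. The GC box, bound by SP factors, was present in 14 of the 28 members (50%) and in 69.9% of the other regions. The CCAAT box, bound by NF-Y, was present in 6 members (21.4%) and in 34.9% of the others. The members had a median of 12.5 CG dinucleotides, against 19 in the others, at a GC content of 65.9% against 68.7%. The octamer occurred in 2 members (7.14%), the BHLHA15 and ZNF630 sequences above, and in 63 of the others (0.982%). The TATA box (3.57% against 2.29%) and the SOX core (3.57% against 3.30%) were each in 1 member. With 28 sequences these shares are descriptions, and a match to letters is not evidence of a bound factor.

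Most day-0-only regions lay beside a later region and not alone. The gap from a member to the nearest BMP4 or SMADi region was at most 100 bp for 706 members (27.3%) and at most 1 kb for 1766 (68.2%). The median gap was 273 bp, and the largest was 166612 bp. For 1410 of the 1766 near members (79.8%), that nearest later region was overlapped by another day 0 region. Another day 0 region lay within 1 kb of 65.1% of the members, against 54.7% of the other day 0 regions.

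**Figure D1:**
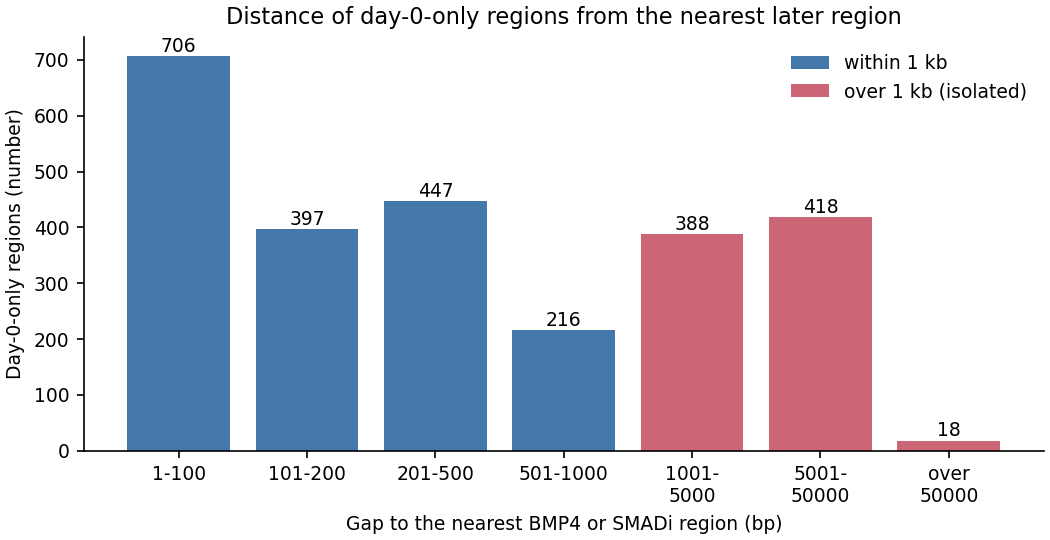
Number of day-0-only regions (vertical axis) by gap in bp to the nearest BMP4 or SMADi region (horizontal axis, unequal classes). Blue bars are regions within 1 kb of a later region and red bars those farther away; the class of 1 to 100 bp holds 706 regions and the class over 50000 bp holds 18.

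The remaining 824 members (31.8%) had no later region within 1 kb and are called isolated here. Of these, 388 were over 1 and up to 5 kb from a later region, 418 were over 5 and up to 50 kb away and 18 were farther. The members closest to the edge of the rule had levels like those of the regions that just missed it: 78 members at a gap of 1 to 10 bp had a median of 3.47 CPM, and 92 regions that overlapped a later region by 1 to 10 bp had a median of 3.55 CPM.

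Day-0-only regions were weakly accessible. Their median over the 6 libraries was 3.64 CPM, against 7.03 CPM for the other 97994 day 0 regions, and isolated members (3.69 CPM) were as low as near ones (3.62 CPM). In single libraries the member median was 3.47 and 3.68 CPM in KO, 3.73 and 3.25 CPM in ΔATG, and 3.88 and 3.84 CPM in WT. For the other day 0 regions it was 6.93 and 7.15 CPM in KO, 7.18 and 6.81 CPM in ΔATG, and 7.23 and 7.32 CPM in WT. The 6 member medians and the 6 medians of the other regions did not overlap. On the log2 scale the members differed from the other regions by -0.97 ± 0.06 (SD, n = 6 libraries). This is a description and no test is given, since a weakly covered site may also be called less often in another set.

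Only 34 members (1.31%) reached the median of the other regions. The highest was the divergent PPM1B and PPM1B-DT promoter, whose sequence is shown above, with 30.6 and 26.0 CPM in KO, 23.7 and 22.9 CPM in ΔATG, and 16.2 and 26.4 CPM in WT. The groups overlapped, because 1 WT library lay above 1 KO library. It was followed by regions near KLHL26 (19.7 CPM), LINC01004 (15.4 CPM), BAD, a pro-apoptotic BCL2 family gene (13.9 CPM), GOLGB1, a Golgi protein (12.3 CPM), PREP (11.5 CPM), COLGALT1, a collagen-modifying enzyme (11.4 CPM), INSIG1, a regulator of sterol synthesis (11.4 CPM), SLC39A14, a zinc transporter (11.3 CPM), MSI1, an RNA-binding protein of neural progenitors (11.1 CPM), CROCC (10.3 CPM) and TTC22 (9.56 CPM). All 12 lay within 182 bp of a later region, so none of them was isolated. The highest isolated member had 6.41 CPM.

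**Figure D2:**
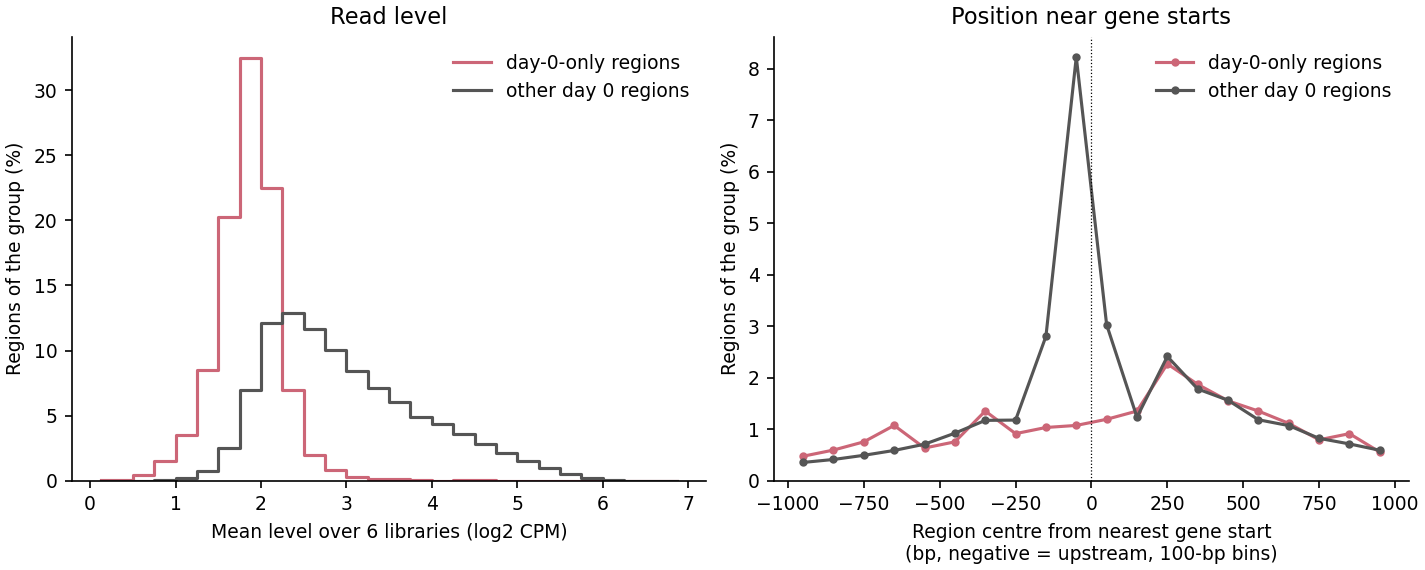
Left, share of regions (%) by mean level over the 6 day 0 libraries (log2 CPM, bins of 0.25) for day-0-only regions (red) and other day 0 regions (grey); right, share of regions (%) by the position of the region centre relative to the nearest gene start in bp, in 100-bp bins, negative values upstream. The red curve sits at low levels and lacks the peak just upstream of gene starts, where the bin from -100 to 0 bp holds 1.08% of day-0-only regions and 8.23% of the others.

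The members lay to the side of gene starts more often than on them. No gene starts were used on chromosome 8, so these shares leave it out. The centre of 58 members (2.31%) was within 100 bp of a RefSeq gene start, against 11.3% of the other day 0 regions. Between 100 and 500 bp the shares were 11.1% and 13.1%, and between 500 and 1000 bp they were 8.29% and 6.96%. Among those within 1 kb of a start, 326 members were downstream and 218 upstream (40.1% upstream, against 53.9% of the other regions), at a median of 392 bp from the start, against 210 bp.

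Measured to either end of a gene, 32.1% of the members were within 1 kb, against 37.7% of the other day 0 regions. The share was 41.6% for near members and 11.8% for isolated ones. Isolated members lay mostly inside genes and away from their ends (52.3%), and 14.1% of them were more than 50 kb from any gene end, against 8.75% of the other day 0 regions. Members were spread over 2333 nearest genes, of which 2113 had 1 member each and 31 had 3 or more. By chromosome the share of day 0 regions that were members was highest on chromosome 22 (3.76%) and chromosome 19 (3.45%).

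The gene with the most members was LHX3, a LIM homeodomain factor of motor neurons and pituitary, with 5 of its 23 nearest day 0 regions, 384 to 25431 bp from a gene end and 33 to 299 bp from a later region. NPTX1, a neuronal pentraxin (4 of 18), LOC124902608 (4 of 6), CAPN1, a calcium-activated protease (4 of 12), and DLL4, a Notch ligand (4 of 15), had 4 each. CRB2, a cell polarity gene (3 of 17), MEIS3, a homeodomain factor (3 of 14), LOC105374614 (3 of 18), LOC101928543 (3 of 7) and LINC01828 (3 of 8) had 3 members each. None of the members near these 10 genes passed the threshold in a comparison of genotypes; the smallest adjusted p (edgeR's quasi-likelihood test, Benjamini-Hochberg adjustment) was 0.117, at LINC01828.

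At all 3 members near LINC01828, log2 differences from WT were -0.29 to -1.20 in KO and -0.51 to -1.05 in ΔATG. Over all members the difference was below 0 for 56.5% in KO against WT and for 63.3% in ΔATG against WT. The LINC01828 members were singled out for their p. They lay close together on chromosome 2, between 67339643 and 67341583 and at least 50399 bp from the gene's end. The first had 2.11 and 2.60 CPM in KO, 2.66 and 2.48 CPM in ΔATG, and 6.02 and 4.76 CPM in WT. The WT libraries lay above all 4 others there, at a log2 difference of -1.20 in KO against WT and -1.05 in ΔATG against WT, and neither passed the threshold.

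Among 32 genes of core and primed pluripotency, 6 had a member nearby, at low level and with no change between genotypes that passed the test. Of the 225 day 0 regions nearest to the 32 genes, 9 (4.00%) were members, near PODXL, CRIPTO, DNMT3B, FOXD3, ZSCAN10 and VRTN. The share was 2.57% over all day 0 regions and up to 3.76% in the other gene lists given below. Their levels ran from 2.56 to 5.45 CPM, at a median of 4.17 CPM, against 6.92 CPM for the other regions of these genes. The log2 differences ran from -0.81 to 0.39 in KO against WT, from -0.50 to 0.28 in ΔATG against WT and from -0.32 to 0.74 in KO against ΔATG. None was called in any of the 3 comparisons.

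CRIPTO encodes the co-receptor through which NODAL signals, and 2 members lay 2426 and 2993 bp from its end. The stronger, chr3:46585450-46585650, had 5.88 and 5.20 CPM in KO, 5.85 and 2.79 CPM in ΔATG, and 6.69 and 4.76 CPM in WT. The groups overlapped. DNMT3B encodes the DNA methyltransferase that sets methylation in early embryonic cells, and its member, chr20:32809788-32809988, lay 432 bp from the gene's end with 3.17 and 4.33 CPM in KO, 4.39 and 4.64 CPM in ΔATG, and 5.76 and 2.75 CPM in WT. Both WT values lay outside the range of the KO and ΔATG values, one above and one below.

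PODXL encodes podocalyxin, the protein that carries the TRA-1 surface epitopes of pluripotent cells, and its members had 5.45 and 4.62 CPM. The FOXD3 member 1784 bp from this forkhead gene's end had 2.86 and 2.82 CPM in KO, 3.73 and 3.40 CPM in ΔATG, and 4.69 and 5.68 CPM in WT. Its groups did not overlap, yet the log2 difference of -0.81 between KO and WT had an adjusted p of 0.430. At the FOXD3 member 4892 bp away the order was not repeated, with 3.02 and 4.12 CPM in KO, 2.00 and 2.17 CPM in ΔATG, and 2.14 and 3.48 CPM in WT.

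**Figure D3:**
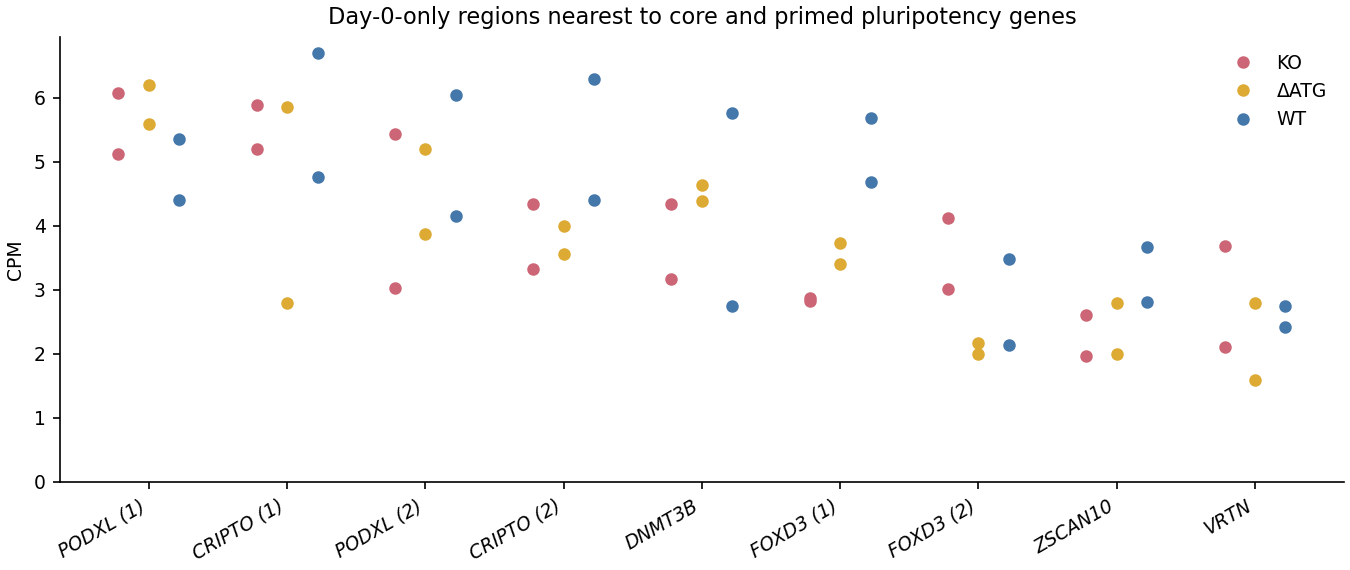
Level in CPM (vertical axis) of the 9 day-0-only regions nearest to core and primed pluripotency genes, ordered by mean level; each point is 1 library, with KO in red, ΔATG in yellow and WT in blue. The values lie between 1.60 and 6.69 CPM, and both WT points lie above all others at the stronger FOXD3 region, the weaker CRIPTO region and ZSCAN10. No difference between genotypes was called at any of the 9, and the share of all members with this order is not given here.

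In the other lists the share of regions that were members ran up to 3.76%. Naive pluripotency genes held 2 of 73 regions (2.74%), near KLF4 (4.91 CPM) and TBX3 (2.90 CPM). The Nodal and Activin pathway held 1 of 91 (1.10%), in LEFTY1, a secreted inhibitor of NODAL (3.62 CPM). Neuroectoderm genes held 7 of 186 (3.76%), 2 of them near RAX, the retinal homeobox gene, and 1 each near LHX2, SOX1, LHX5, ZIC1 and PAX6. Primitive streak and mesoderm genes held 6 of 178 (3.37%), near DLL1, WNT3, TBXT, GATA4, LHX1 and PDGFRA.

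Ribosomal protein genes held 3 of 83 (3.61%), fibroblast and stroma markers held 0 of 54, and genes with a symbol starting ZNF held 17 of 1401 (1.21%), against 2.57% over all day 0 regions. No member of any list was called between genotypes. The lowest adjusted p was 0.324, at the RAX member with 1.96 and 2.17 CPM in KO, 2.66 and 1.86 CPM in ΔATG, and 4.55 and 3.85 CPM in WT.

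As a whole the members took about 1% of the reads of each library. Their share of a library's counts was 0.931% and 1.01% in KO, 0.968% and 0.879% in ΔATG, and 1.02% and 1.03% in WT. Both WT libraries lay above all 4 others, but relative to the TMM effective library size KO (0.981% ± 0.052) and WT (1.01%) overlapped, with an exact permutation p of 1 (n = 2 each). As a share of counts KO averaged 0.973% ± 0.059 and WT 1.03% ± 0.007 (SD, n = 2 each), with an exact permutation p of 0.333, the smallest that 2 libraries against 2 allow. ΔATG averaged 0.923% ± 0.063 (SD, n = 2) and gave the same p against WT. KO against ΔATG gave an exact permutation p of 0.667. For the isolated members alone the shares were 0.303% and 0.321% in KO, 0.303% and 0.295% in ΔATG, and 0.313% and 0.313% in WT.

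Region by region, KO cells differed from WT at few members. At an adjusted p under 0.05, 4 members were called (0.154%), 3 higher and 1 lower in KO, while 0.0855% of all 100582 tested regions were called in this comparison, 0.0537% higher and 0.0318% lower. Among 29760 other day 0 regions of the same range of levels (2.33 to 5.29 CPM, the 5th to 95th percentile of members), 0.104% were called. Levels were not matched within that range, and the shares of members here and below were not limited to it. All 4 called members were isolated. The 3 comparisons of genotypes share libraries (KO and ΔATG are both set against the same WT libraries, and against each other), so they are not independent of each other.

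The lower one overlapped the end of GPRC5D-AS1, an antisense RNA at the orphan receptor gene GPRC5D, at chr12:12927638-12927838 and 8617 bp from the nearest later region. It had 2 and 1 reads in the KO libraries, 35 and 27 in ΔATG, and 28 and 18 in WT, or 0.302 and 0.217 CPM in KO, 4.66 and 4.18 CPM in ΔATG, and 3.75 and 3.30 CPM in WT. Both KO libraries had almost no reads there, and both ΔATG libraries lay above both WT libraries. The log2 difference was -3.61 ± 0.58 (SE) in KO against WT, with an adjusted p of 1.46e-05 (edgeR), and -3.96 ± 0.54 in KO against ΔATG, with an adjusted p of 3.72e-08. It was called in all 6 fits that left out 1 library, while DESeq2 gave adjusted p-values of 0.563 against WT and 0.0668 against ΔATG.

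The 3 that rose in KO lay 54882 bp from LOC101927615 on the short arm of chromosome 21, inside ASTN2 at 12781 bp from TRIM32, a ubiquitin ligase, and inside LOC124909353 on chromosome 3. The first had 3.62 and 4.77 CPM in KO, 0.399 and 0.464 CPM in ΔATG, and 1.47 and 0.732 CPM in WT. The ASTN2 region had 4.67 and 4.12 CPM in KO, 0.931 and 1.39 CPM in ΔATG, and 1.61 and 1.47 CPM in WT. At both, every KO library lay above every other library. The log2 differences against WT were 1.84, 1.54 and 1.38, with adjusted p-values of 0.0140, 0.0391 and 0.0487 (edgeR). Each lost its call in at least 3 of the 6 fits that left out 1 library. The short arm of chromosome 21 is rich in repeated sequence, where reads may belong to other copies, which was not tested. Fewer members were called without KO replicate b or without WT replicate a, and more without WT replicate b. The count over all regions tested moved in the same directions.

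**Figure D4:**
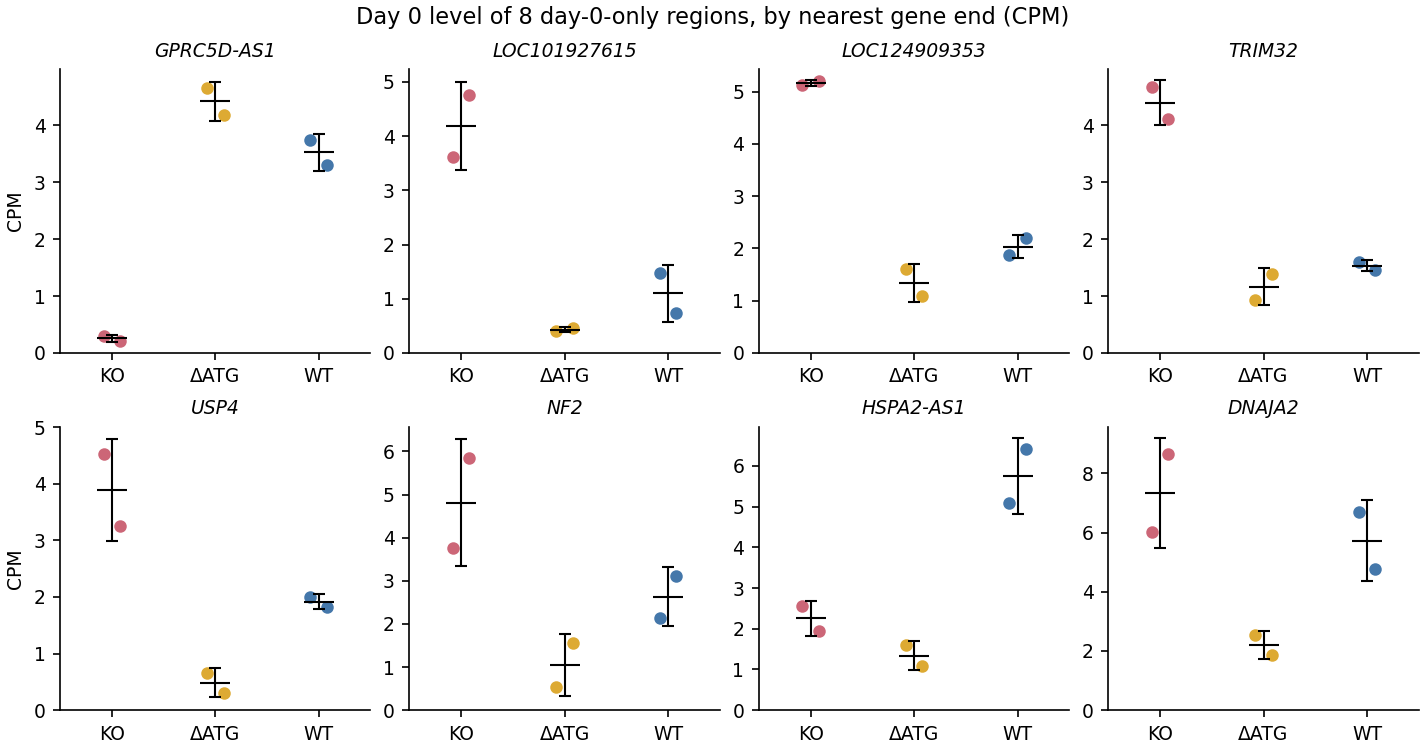
Level in CPM (vertical axes, each from 0) of 8 day-0-only regions named by the nearest gene end, in KO (red), ΔATG (yellow) and WT (blue); each point is 1 library, and the black bars show the mean ± SD of 2 libraries. The region at GPRC5D-AS1 has 0.302 and 0.217 CPM in KO, and the region at USP4 has 0.665 and 0.309 CPM in ΔATG.

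In ΔATG against WT the called members were mostly lower. There were 16 of them (0.618%), 4 higher and 12 lower, beside 0.206% of all regions tested (0.0408% higher, 0.165% lower) and 0.302% of other regions of the same range of levels; 6 of the 16 were isolated. The lowest p was at a region in HSPA2, an HSP70 chaperone gene of the testis, 1146 bp from the end of HSPA2-AS1. It had 1.60 and 1.08 CPM in ΔATG and 5.09 and 6.41 CPM in WT, with 2.56 and 1.95 CPM in KO. Both WT libraries lay far above the other 4, and the log2 difference in ΔATG against WT was -2.02 ± 0.34, with an adjusted p of 8.05e-05 (edgeR). It alone of the 16 was called in all 6 fits that left out 1 library.

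The other 11 that fell in ΔATG lay near LOC105373999 (-1.57), BANCR (-1.59), TENM2-AS2 (-1.38), CNTNAP2-AS1 (-1.48), TMEM35B (-1.50), CHRNA1, the muscle acetylcholine receptor subunit (-1.66), INF2, a formin (-1.45), DNAJA2, an HSP40 co-chaperone (-1.36), HMX3, a homeodomain factor (-1.35), IL34, a cytokine (-1.22), and OSR1, a zinc-finger factor of intermediate mesoderm (-1.39), where each value is a log2 difference from WT. The 4 that rose lay near LOC101927971 inside RAD51B, a DNA repair gene (1.51), SNTG2-AS1 (1.68), AKNA (1.55) and SLC25A33, a mitochondrial carrier (1.33).

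At AKNA, ΔATG had 10.9 and 8.97 CPM and WT had 1.20 and 6.41 CPM, so WT replicate a lay far below and WT replicate b nearer to ΔATG. Leaving out the WT libraries one at a time lowered the count of called members (without replicate a) or raised it (without replicate b). Without replicate b the called members were mostly higher, so the direction of the majority depends on WT replicate b. Without ΔATG replicate a fewer members were called, all lower, and without ΔATG replicate b fewer were called, mostly higher. In each of these fits the count over all regions tested moved in the same direction as the count of members.

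KO and ΔATG cells differed from each other at 26 members (1.00%), 19 higher and 7 lower in KO. This stood beside 0.329% of all regions tested (0.248% higher, 0.0815% lower) and 0.339% of other regions of the same range of levels; 15 of the 26 were isolated. Besides GPRC5D-AS1 and LOC101927615 (3.20), the largest differences were near USP4, a deubiquitinase, at a region inside C3orf62 (2.95), and NF2, the merlin tumour suppressor (2.19).

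The region near USP4 had 4.52 and 3.25 CPM in KO and 0.665 and 0.309 CPM in ΔATG, with 2.01 and 1.83 CPM in WT. The region near NF2 had 3.77 and 5.85 CPM in KO and 0.532 and 1.55 CPM in ΔATG, with 2.14 and 3.11 CPM in WT. At both, WT lay between the other groups without overlap. The region in DNAJA2 had 6.03 and 8.67 CPM in KO, 2.53 and 1.86 CPM in ΔATG, and 6.69 and 4.76 CPM in WT, so KO and WT overlapped and ΔATG lay below both.

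Others higher in KO than in ΔATG were near UBASH3B (1.63), CCDC50 (1.62), CLMN (1.36) and NR2F6, an orphan nuclear receptor (1.47). Those lower in KO included regions in SORCS2 near LOC124900654 (-1.58), in ZSCAN5B (-1.79), near LOC107986855 (-1.66) and in GPT2, an alanine aminotransferase (-1.58). LOC101927615, USP4, LOC124909353 and GPRC5D-AS1 were called in all 6 fits that left out 1 library. Fewer members were called without KO replicate b, without ΔATG replicate a or without ΔATG replicate b. The count over all regions tested fell in each of these fits as well.

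DESeq2 called 0 members in each of the 3 comparisons, with unadjusted p-values under 0.05 for 47 members in KO against WT, 56 in ΔATG against WT and 84 in KO against ΔATG. With edgeR those numbers were 369, 411 and 389. Over all 100582 regions tested, DESeq2 called 19, 13 and 38 in these comparisons, in the same order. Unadjusted p-values under 0.05 over all regions numbered 1465, 1538 and 1959 with DESeq2, and 8351, 8877 and 9681 with edgeR. The median log2 difference over all members was -0.07 in KO against WT, -0.15 in ΔATG against WT and 0.06 in KO against ΔATG. Other regions of the same range of levels had medians of -0.08, -0.10 and 0.02, and isolated members had 0.02, -0.04 and 0.05.

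The members themselves have no counts after day 0, so the later regions beside them were read in WT cells, at day 5 against day 1 of each treatment. Of 7735 tested BMP4 regions within 5 kb of a member, 28.8% were called, 1020 higher (13.2%) and 1208 lower (15.6%), beside 34.9% of all BMP4 regions (20.3% higher, 14.7% lower). BMP4 regions that overlapped any day 0 region were called higher at 14.4% and lower at 16.4%, so the neighbours of members were near that background. The direction of the majority depended on the method and on single libraries. Scaling by total counts, which moved the median of all BMP4 regions to -0.17, against -0.03 on the log2 scale, gave 707 higher and 1864 lower, and DESeq2 gave 669 higher and 468 lower. Without WT day 5 replicate b, 1286 neighbours were called, 652 higher and 634 lower, and without WT day 5 replicate a 804 were higher and 794 lower. Leaving out WT day 1 replicate a or replicate b kept the majority lower.

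Of 7535 tested SMADi regions within 5 kb of a member, 33.7% were called, 976 higher (13.0%) and 1561 lower (20.7%), beside 40.9% of all SMADi regions (23.9% higher, 17.1% lower). Of SMADi regions that overlapped any day 0 region, 10.7% were called higher and 19.6% lower, again near the values for the neighbours of members. With total-count scaling the neighbours gave 778 higher and 1919 lower, at a median of -0.10 over all SMADi regions.

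For 1590 members a tested region lay within 1 kb in both later sets. The nearest regions of 126 of these (7.92%) fell in both treatments and those of 45 (2.83%) rose in both, against 6.81% and 4.01% for the other day 0 regions. At a size of 1 log2 unit or more the counts were 43 (2.70%) and 1 (0.0629%), against 1.97% and 0.325%. For most of the other day 0 regions the nearest later region overlapped the region itself, whereas for members it was a separate site. The shares of the 2 groups are therefore not like for like. The 43 members had only 40 distinct nearest BMP4 regions, since some lay beside the same region. The named cases that follow were chosen from these 43, or from the gene lists, after their values were seen.

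The largest fall in both treatments was beside a member 7599 bp from LNCPRESS2, a long noncoding RNA of embryonic stem cells, at chr4:92254699-92254899. The member had 3.92 and 3.25 CPM in KO, 4.92 and 3.87 CPM in ΔATG, and 8.03 and 3.84 CPM in WT at day 0, so the genotypes overlapped. The BMP4 region 28 bp away had 0.291 and 0.109 CPM in WT cells at day 5, against 8.06 and 8.59 CPM at day 1, a log2 difference of -5.22 ± 0.45 with an adjusted p of 3.28e-18 (edgeR). The SMADi region 43 bp away had 0 and 0.200 CPM at day 5, against 11.1 and 11.2 CPM at day 1, a difference of -6.19 ± 0.63 with an adjusted p of 2.39e-10. Under BMP4 most of the signal was gone by day 2, at 1.62 and 0.917 CPM.

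The BMP4 region was also low at day 5 in the other lines. It had 0.884 and 0.651 CPM at day 5, against 10.9 and 8.29 CPM at day 1 in KO, and 0 and 0 CPM at day 5, against 9.65 and 7.32 CPM at day 1 in ΔATG. Day 5 lay below day 1 in every line with no overlap, and genotypes were not tested against each other at these regions.

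The BMP4 region nearest to the CRIPTO members lay 729 and 1296 bp from them. It had 0 and 0.546 CPM in WT at day 5, against 3.47 and 3.35 CPM at day 1 (-3.25 ± 0.52, adjusted p 2.08e-07, edgeR). The nearest SMADi region, 761 and 1328 bp away, had 0.564 and 0.200 CPM at day 5, against 2.87 and 3.66 CPM at day 1 (-3.20 ± 0.57, adjusted p 1.08e-05, edgeR). The regions beside the DNMT3B member fell by 1.77 on the log2 scale under BMP4 (715 bp away) and by 2.79 under SMADi (1054 bp away). Those among the 3 LINC01828 members fell by 2.39 and 3.81. The later regions at LNCPRESS2, CRIPTO and LINC01828, and the BMP4 region at DNMT3B, each overlapped another day 0 region. They are separate sites, so their fall does not measure the members.

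**Figure D5:**
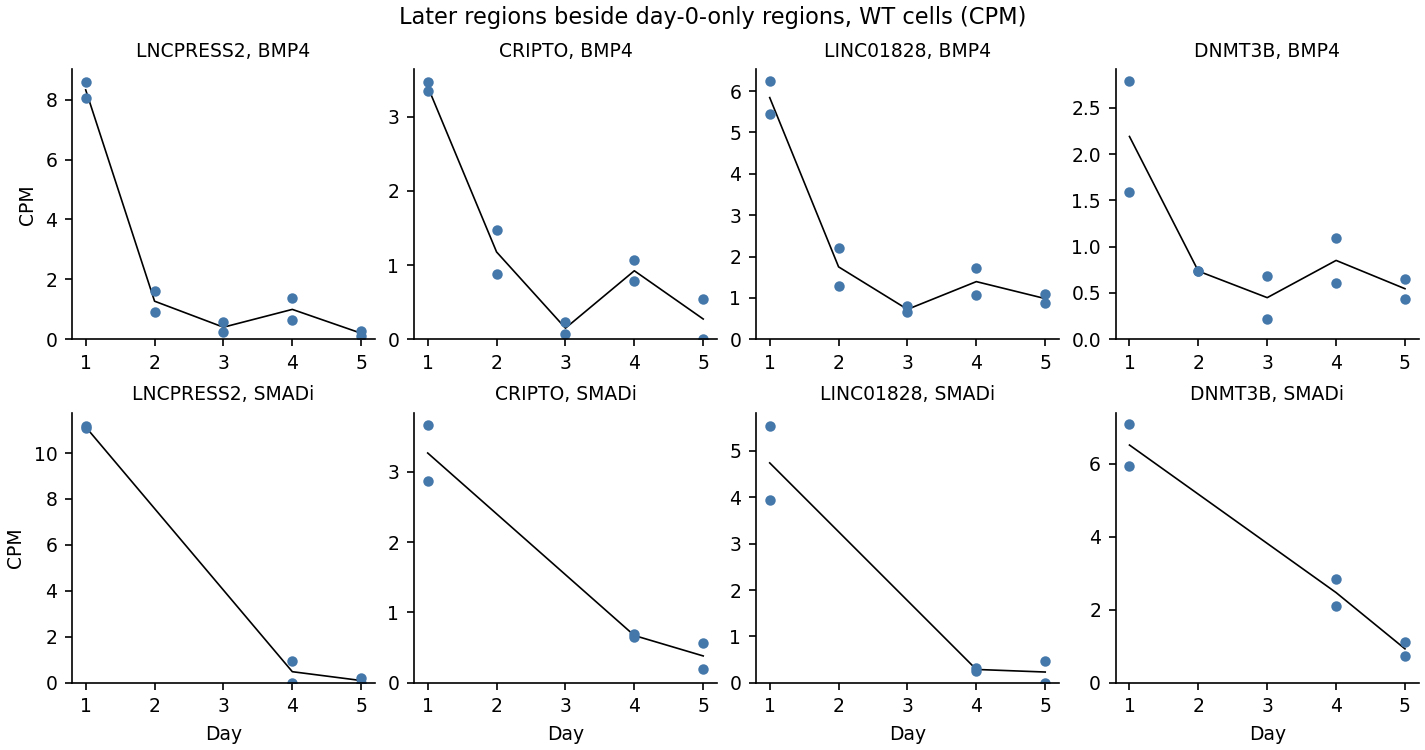
Level in CPM (vertical axes, each from 0) by day of treatment (horizontal axis) of the BMP4 region (top) and the SMADi region (bottom) nearest to day-0-only regions at 4 genes, in WT cells; each point is 1 library, and the line joins the means of the days measured. The values for LNCPRESS2 under BMP4 are 8.06 and 8.59 CPM at day 1 and 0.291 and 0.109 CPM at day 5.

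Not every pluripotency gene had later regions that fell beside its members. At FOXD3, ZSCAN10 and VRTN no nearest region was called under either treatment. Beside LEFTY1 the BMP4 region differed by 0.10 and was not called, while the SMADi region 2160 bp away fell by 1.81. Beside PODXL the SMADi regions differed by 1.13 and -0.68, both called and in opposite directions. Beside the neuroectoderm members, the SMADi regions at LHX2 (0.69) and SOX1 (0.57) rose and the one at LHX5 fell by 1.68, while under BMP4 those at LHX5 (-0.92), PAX6 (-0.70) and 1 of the 2 at RAX (-1.06) fell.

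The day 0 libraries held 4616521 to 7516259 counts in regions, and a member of median level had about 23 reads per library, so small differences at a single member were not detectable at this depth. As a check of the labelled cell type, 11 of 12 pluripotency markers had a day 0 region within 1 kb of a gene end. So did 5 of 5 mesoderm, 4 of 4 neuroectoderm and 2 of 6 fibroblast markers, so open gene ends alone do not separate these cell types. The summed level of the pluripotency set was 274 and 261 CPM in KO, 265 and 250 CPM in ΔATG, and 268 and 266 CPM in WT. Over the 6 libraries the 4 neuroectoderm genes summed to 150 to 170 CPM and the 5 mesoderm genes to 114 to 129 CPM. The 6 fibroblast genes summed to 64 to 71 CPM. The sets differ in size, so these sums do not separate the cell types either.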

How the data were processed

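The authors deposited 3 tables of raw counts per region, for day 0, BMP4 and SMADi, in fixed windows of 201 bp. MACS2 and GRCh38 are named in the submitters' processing notes; no source used here gives the aligner or how windows were merged. Members were found by coordinates, with adjacent windows counted as a gap of 1 bp. Gene ends came from 38151 protein-coding and lncRNA genes and gene starts from the promoter table, both RefSeq GRCh38.p14. Each count table was fitted whole in edgeR 4.0.16 (TMM, filterByExpr, robust quasi-likelihood test, Benjamini-Hochberg over all regions tested, threshold 0.05), with 1 mean per genotype and day; R was 4.3.3. All 2590 members passed the filter of 100582 regions. The edgeR test gives no SE, so each SE was derived from the log2 difference and the F statistic of the test. The procedure was tested on simulated data. Alternatives were other scalings, no filter, DESeq2 1.42.0, a replicate block and leaving out libraries.

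Members named are those called per comparison (up to 10 in each direction by p, and further called ones in counts), the 12 of highest CPM, those at the 10 genes with most members, and those nearest to genes in fixed lists. Members, lists and tests were chosen with earlier results of these data known. The 3 tables were normalized separately, so levels are compared within a table only. Replicate pairs differed by more than sampling noise. One result is not reported here.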

Additional observations from a re-analysis of the deposited data

How the results depend on the processing

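The number of members depended on the rule: 3957 when only an overlap of more than 0.5 of a region's length disqualified it and 824 when no later region could lie within 1 kb. For called members, KO against WT gave 2 with total-count scaling and 0 with DESeq2, ΔATG against WT gave 0 with DESeq2 and 6 among isolated members, and KO against ΔATG gave 0 with DESeq2 and 15 among isolated members. Leaving out 1 library gave 1 to 7, 1 to 25 and 7 to 33 called members in those comparisons; a group left with 1 library is assumed to vary like the others. In each fit without 1 library, the number called over all regions tested moved in the same direction as the number of called members. The replicate letters did not pair the libraries (correlations of 0.03, -0.10 and -0.12 between groups), and a replicate block gave 2, 10 and 21 called members. Of 506 alternative values for the called members, 321 stayed past the threshold, 185 did not, 46 of these with DESeq2, and none changed direction. The lower level of members was -0.98 to -0.95 without 1 library and -1.43 with mean CPM. Called neighbours within 5 kb numbered 1137 with DESeq2 and 1286 to 1704 without 1 library under BMP4, and 1793 to 2475 under SMADi; within 1 kb they numbered 982 and 1034. The cause of these changes was not tested. Levels near 20 reads per library limit single members.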

Other observations

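Some day-0-only regions overlay genes other than those they are nearest to. The WNT3 member lay inside LRRC37A2 at 4.28 CPM, the DLL1 member inside FAM120B at 6.31 CPM, and the TBXT member inside LNCDAT at 4.04 CPM, each nearest to a developmental gene's end. A member in TBXT that was nearest to LNCDAT had 2.75 CPM, and the later regions beside it fell by 1.16 under BMP4 and by 1.07 under SMADi on the log2 scale in WT cells at day 5 against day 1.

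The only member whose nearest regions rose by 1 log2 unit or more under both treatments was in FIZ1, a zinc-finger gene, with differences of 1.48 under BMP4 and 1.45 under SMADi. Beside the RPS9 member the regions fell by 1.11 under BMP4 and by 2.89 under SMADi. The member in CCDC50, higher in KO than in ΔATG at day 0, had neighbours that fell by 1.30 under BMP4 and by 4.00 under SMADi. These were chosen after their values were seen.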
